A study of Mus musculus with 6 samples.

Results

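The genes examined were 10 genes of MHC class I antigen presentation, among 56691 genes in the deposited table. They were the heavy chain genes *H2-K1*, *H2-D1*, *H2-Q1*, *H2-Q4*, *H2-Q7*, *H2-Q10* and *H2-T23*, the light chain gene *B2m*, and the peptide loading genes *Tap1* and *Tapbp*. Each was found by its Ensembl identifier. The family was chosen by the level of *H2-Q1*, which was among the lowest in KPF relative to WPF in these libraries, so the difference of *H2-Q1* between the groups is described here and not tested.

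RNA was sequenced from whole liver of 6 pregnant mice on a high-fructose diet (HFrD, 70% fructose) from Day 0 to Day 17. The KPF group held 3 hChrebp-KO dams (replicates 1, 2 and 3), in which *Mlxipl*, the gene of the transcription factor ChREBP, lacked a floxed exon in hepatocytes through a Cre under the albumin promoter. The WPF group held 3 dams (replicates 2, 3 and 4) that the labels call wild type and the methods of the study call Chrebp flox/flox, that is, with the same floxed allele and without the Cre. Both groups were pregnant and on HFrD, and the Cre was aimed at hepatocytes and not at other liver cells. The ages of the dams were not given in the sources used here.

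MHC class I molecules carry short peptides from inside the cell to its surface, where CD8+ T cells and natural killer cells read them. A molecule consists of a heavy chain, the light chain beta-2 microglobulin and the peptide, which the transporter TAP brings into the endoplasmic reticulum and the chaperone tapasin helps to load. In the mouse, *H2-K1* and *H2-D1* are the classical heavy chains of most cells, and the Q and T regions hold the non-classical ones. *H2-Q10* is known for its high level in liver and its secreted product, *H2-Q7* encodes a Qa-2 antigen, and *H2-T23* encodes Qa-1, a ligand of receptors on natural killer cells.

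In the deposited coordinates (GRCm39 per the submitters' processing notes), 9 of the 10 genes lay on chromosome 17. *Tapbp* (chr17:34134873-34148266), *H2-K1* (chr17:34214991-34219321) and *Tap1* (chr17:34406527-34416199) came before *H2-D1* (chr17:35481706-35486475). The Q genes followed, with *H2-Q1* at chr17:35539381-35544075, *H2-Q4* at chr17:35598593-35604266, *H2-Q7* at chr17:35658131-35662749 and *H2-Q10* at chr17:35780986-35785460. *H2-T23* lay at chr17:36340665-36343747. *B2m* lay on chromosome 2, at chr2:121978167-121983564. *H2-K1* and *H2-T23* were on the minus strand and the others on the plus strand.

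RefSeq (GRCm38.p6) gave promoters for 9 of the 10 genes. The 250 bases before the start are shown for the 3 heavy chains with the most reads and for their shared light chain. *H2-Q10* differs in these letters from *H2-K1* and *H2-D1*, and whether the letters bear on its level was not tested. Capitals mark matches, on either strand, to GAANNGAAA or GAAANNGAA (forms of the element read by interferon regulatory factors), GGGATTCCC (a core of the NF-kappa B site), CCAAT (the NF-Y box) and TGACG (a part of the cAMP response element). The windows were chr17:34000348-34000597 on the minus strand for *H2-K1*, and on the plus strand chr17:35262844-35263093 for *H2-D1*, chr17:35469839-35470088 for *H2-Q10* and chr2:122147437-122147686 for *B2m*.
H2-K1: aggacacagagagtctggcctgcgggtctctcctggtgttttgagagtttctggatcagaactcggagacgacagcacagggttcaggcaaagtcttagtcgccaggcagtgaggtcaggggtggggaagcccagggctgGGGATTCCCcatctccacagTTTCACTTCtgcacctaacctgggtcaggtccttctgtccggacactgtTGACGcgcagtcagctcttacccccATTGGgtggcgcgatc
H2-D1: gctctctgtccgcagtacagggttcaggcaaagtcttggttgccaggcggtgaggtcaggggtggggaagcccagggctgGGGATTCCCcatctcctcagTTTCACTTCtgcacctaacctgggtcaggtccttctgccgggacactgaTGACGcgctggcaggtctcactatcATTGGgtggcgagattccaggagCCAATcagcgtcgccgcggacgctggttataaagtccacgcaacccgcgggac
H2-Q10: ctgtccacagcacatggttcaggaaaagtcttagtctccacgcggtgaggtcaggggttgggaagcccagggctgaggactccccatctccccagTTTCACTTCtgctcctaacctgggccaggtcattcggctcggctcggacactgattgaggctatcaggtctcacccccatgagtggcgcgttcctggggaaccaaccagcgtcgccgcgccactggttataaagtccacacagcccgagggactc
B2m: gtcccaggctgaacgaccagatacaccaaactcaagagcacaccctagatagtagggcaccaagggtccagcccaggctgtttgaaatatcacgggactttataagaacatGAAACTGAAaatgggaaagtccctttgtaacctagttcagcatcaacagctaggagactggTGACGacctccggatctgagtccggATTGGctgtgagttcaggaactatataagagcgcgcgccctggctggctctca

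The *H2-K1* and *H2-D1* promoters were identical at 87.4% of aligned positions, and *H2-Q10* was identical to them at 82.7% and 82.1%. GAANNGAAA was present in *H2-K1*, *H2-D1*, *H2-Q4*, *H2-Q7* and *H2-Q10* and in 7.516% of 32851 mouse promoters, counted over the 300 bases around the start. GAAANNGAA was present in *B2m* and *H2-T23* and in 8.56% of promoters. GGGATTCCC was found in *H2-K1*, *H2-D1* and *H2-Q7* and in 0.353% of promoters. CCAAT was found in all but *H2-Q10* among these 9 genes and in 37.408% of promoters. TGACG was found in *H2-K1*, *H2-D1*, *H2-Q4*, *H2-Q7*, *B2m* and *Tap1* and in 20.812% of promoters. The E-box CACGTG, the core of the sites that ChREBP binds, was in none of the 9 windows and in 7.15% of promoters. With so low a share, its absence from 9 windows tells nothing about ChREBP. A pair of these E-boxes 5 bases apart was in 0% of promoters, so that strict form could not be looked for here. The motif forms were chosen with these promoters in view, and a match is a stretch of letters, not a shown binding site.

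The libraries held between 10694496 and 14496630 counted reads. Reads were counted over the whole *Mlxipl* gene, so its level does not measure the deleted exon. It stood at 179, 699.6 and 849 CPM (read counts scaled to a common depth after TMM normalization) in KPF replicates 1, 2 and 3, against 961, 1260.3 and 879 CPM in the WPF dams (replicates 2, 3 and 4). The groups did not overlap, and edgeR's quasi-likelihood test gave a log2 fold change (KPF over WPF) of -0.84 with a standard error (SE) of 0.53 (adjusted p = 0.584). KPF replicate 3 and WPF replicate 4 lay nearest to each other. Of the 6 hepatocyte markers written down, all were detected in every library, and their summed level ran from 79820 to 105300 CPM in KPF and from 103400 to 171500 CPM in WPF, the highest being WPF replicate 2. Most of this sum was *Alb*, from 64958 to 90176 CPM in KPF and from 89427 to 148690 CPM in WPF. The group mean was higher in KPF for *Apoa1* and *Cyp2e1* and lower for *Alb*, *Ttr*, *Serpina1a* and *Cps1*, all with overlap. The summed T cell markers ran from 4.95 to 7.40 CPM in KPF and from 2.32 to 3.98 CPM in WPF, so these groups did not overlap. This sum rests on few reads, at most 25 for any of its 6 markers in a library. Only 1 of them, *Trac*, averaged 1 FPKM or more. Singly, *Cd3d*, *Cd3g* and *Cd4* did not overlap, while *Cd3e*, *Cd8a* and *Trac* did. The sums of B cell, dendritic cell, neutrophil, sinusoidal endothelium and cholangiocyte markers overlapped. Singly, the endothelial marker *Pecam1* was higher in KPF without overlap (log2 fold change 0.75, SE 0.22, adjusted p = 0.430, edgeR). The endothelial marker *Stab2* was lower without overlap (-0.41, SE 0.19, adjusted p = 0.483, edgeR). The cholangiocyte marker *Sox9*, below 1 FPKM, was higher without overlap, and the other markers of these lists overlapped. The natural killer cell sums ran from 4.13 to 7.81 CPM and from 3.89 to 5.62 CPM, and those of macrophages and Kupffer cells from 135.8 to 177.6 CPM and from 119.2 to 205.6 CPM. The 5 stellate cell markers summed to between 110.4 and 573.1 CPM in KPF and between 78.98 and 98.09 CPM in WPF. These groups did not overlap. Singly, *Reln* was higher in KPF without overlap (log2 fold change 0.73, SE 0.26, unadjusted p = 0.0241, adjusted p = 0.430, edgeR). *Des* was higher with overlap (4.37, SE 1.26, unadjusted p = 0.00908, adjusted p = 0.430, edgeR), and *Dcn*, *Colec11* and *Lrat* overlapped. The 4 markers other than *Des* summed to 193 CPM in KPF replicate 1 and to between 68.5 and 100.3 CPM in the other libraries, with overlap. *Des*, which skeletal muscle expresses too, stood at 486 CPM in KPF replicate 2 and at 53.8 CPM or less elsewhere. KPF replicate 2 also stood apart in the skeletal muscle genes *Ckm*, at 517 CPM against 1.05 CPM or less elsewhere, and *Acta1*, at 769.7 CPM against 3.37 CPM or less, both named after their values were seen. Without this library no member changed direction, the log2 fold changes of the 9 members other than *H2-Q1* lay between -0.51 and 0.20 (adjusted p between 0.578 and 0.908, edgeR), and that of *H2-Q1* was -2.70. No marker was at 0 in all 6 libraries. The part of these markers in the results below was not tested.

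Of 10866 genes whose FPKM averaged 1 or more, 0 (0%) had an adjusted p under 0.05, and the smallest adjusted p was 0.397 (edgeR). DESeq2 called 156 genes and limma on log2(FPKM + 1) called 0 at the same threshold. At an unadjusted p under 0.05, 494 genes (4.55%) were lower in KPF and 683 (6.29%) were higher. With library totals in place of TMM these were 767 and 376, as the median of all genes moved to -0.12 on the log2 scale, and with limma on log2(FPKM + 1) they were 731 and 275. The groups did not overlap for 886 genes lower in KPF (8.15%) and for 820 higher (7.55%). All 10 members passed the FPKM minimum, *H2-Q1* only through its WPF level. *H2-Q7* averaged 0.98 FPKM in KPF and 1.30 FPKM in WPF, so its WPF level carried it past the minimum as well. Of the 9 members other than *H2-Q1*, 0 passed either threshold, and 1, *H2-Q10*, had groups that did not overlap. Their log2 fold changes had a median of -0.20, with 6 below and 3 above 0, beside a median of 0.02 and 48.6% below 0 over all genes tested.

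In whole liver, fewer cells of a type and less RNA per cell cannot be told apart. *H2-Q1*, a heavy chain gene of the Q region, was the member on which the choice rested. It was counted with 18, 8 and 7 reads in KPF replicates 1, 2 and 3, and with 63, 138 and 139 reads in WPF replicates 2, 3 and 4. Scaled to depth, these were 1.71, 0.71 and 0.67 CPM in KPF and 5.44, 9.70 and 8.14 CPM in WPF. No KPF library reached the level of any WPF library, and KPF replicate 1 and WPF replicate 2 lay nearest to each other. The means were 1.03 ± 0.59 CPM (SD, n = 3) and 7.76 ± 2.15 CPM (SD, n = 3), and the fitted log2 fold change was -2.90 (SE 0.47). This difference chose the gene, so its size and SE are a description and no measure of support.

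*H2-Q1* resembles other heavy chain genes. Of the 1875 stretches of 150 bases in its longest protein-coding transcript, 87 (4.64%) also occurred in another gene, 52 in *H2-Q2* and 35 in *H2-D1*. Over stretches of 50 bases the share was 22.94%. Its reads were few against those of *H2-D1*, which had between 3402 and 6825 reads in a library. The *H2-D1* level overlapped between the groups.

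**Figure D1:**
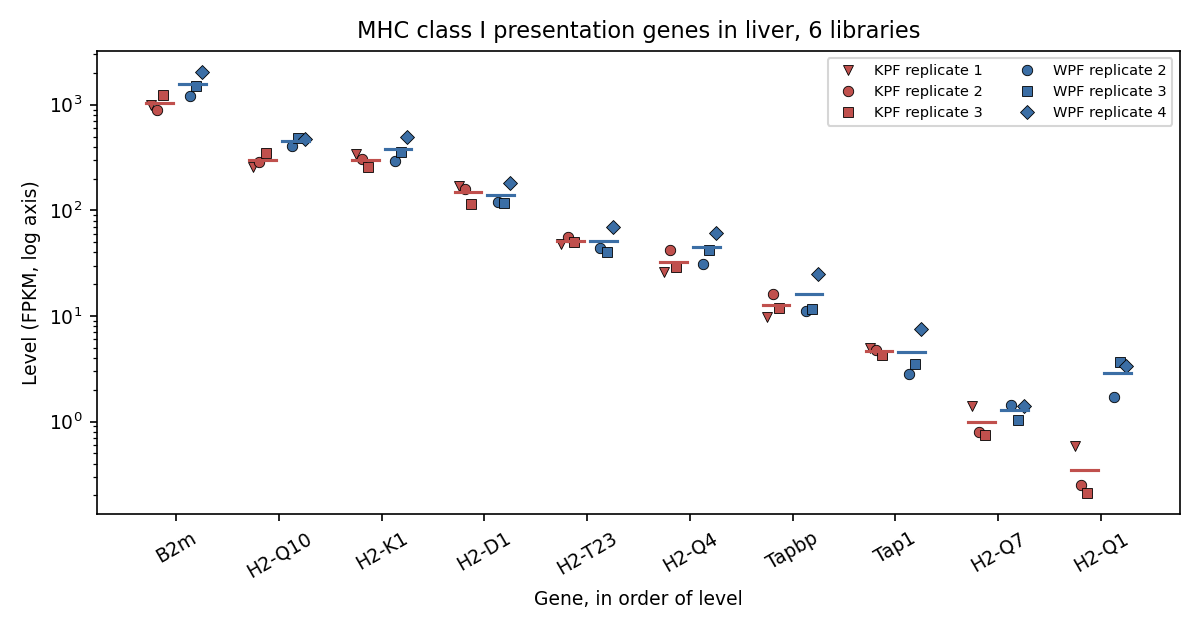
Level of each member in FPKM (log axis) in the 3 KPF and 3 WPF libraries, with a line at each group mean and genes in order of level. The groups of H2-Q1 lie apart, those of H2-Q10 lie apart by a smaller distance, and the other 8 overlap.

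*H2-Q10* had the most reads of the heavy chain genes. It stood at 1131.6, 1243.9 and 1696.9 CPM in KPF replicates 1, 2 and 3, against 1987.0, 1936.3 and 1741.1 CPM in the WPF dams (replicates 2, 3 and 4). The groups did not overlap, and KPF replicate 3 and WPF replicate 4 lay nearest to each other. The means were 1357.5 ± 299.3 CPM and 1888.1 ± 129.8 CPM (SD, n = 3 each), and the log2 fold change was -0.48 (SE 0.27, adjusted p = 0.556, edgeR). The exact two-sided permutation test gave p = 0.1, the smallest that 3 against 3 dams allow. With library totals in place of TMM the log2 fold change was -0.61 at an unadjusted p of 0.0452 (adjusted p = 0.468).

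The classical heavy chains overlapped between the groups. *H2-K1* stood at 1011.7, 900.4 and 846.6 CPM in KPF replicates 1, 2 and 3, against 971.0, 963.6 and 1225.4 CPM in the WPF dams (replicates 2, 3 and 4). Its highest value was in WPF replicate 4, and the other 5 libraries lay between 846.6 and 1011.7 CPM. Its log2 fold change was -0.20 (SE 0.25, adjusted p = 0.793, edgeR), and -0.08 without WPF replicate 4. *H2-D1* stood at 444.9, 414.9 and 326.8 CPM in KPF against 348.3, 281.2 and 399.7 CPM in WPF. KPF replicates 1 and 2 were the highest and WPF replicate 3 the lowest, with a log2 fold change of 0.21 (SE 0.26, adjusted p = 0.792, edgeR). It was 0.08 without WPF replicate 3 and 0.32 without KPF replicate 3 or WPF replicate 4.

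Ratios within a library do not depend on how libraries are scaled. Among the 5 heavy chains with at least 100 reads in every library, 10 ratios of FPKM were formed, and in 1 of them, *H2-K1* over *H2-D1*, the groups did not overlap. This ratio was 1.996, 1.91 and 2.27 in KPF replicates 1, 2 and 3, and 2.45, 3.01 and 2.69 in WPF replicates 2, 3 and 4. All KPF libraries thus had less *H2-K1* per *H2-D1* than all WPF libraries (means 2.06 ± 0.19 and 2.72 ± 0.28, SD, n = 3 each). The exact permutation p was 0.1, the smallest possible, before any adjustment over the 10 ratios, and the ratios were formed after the levels had been seen. With no difference between the groups, 1 of 10 such ratios would lack overlap on average. The ratio of *H2-K1* to *H2-Q10* was 1.32, 1.07 and 0.74 in KPF and 0.72, 0.74 and 1.04 in WPF, with overlap (exact permutation p = 0.2).

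**Figure D2:**
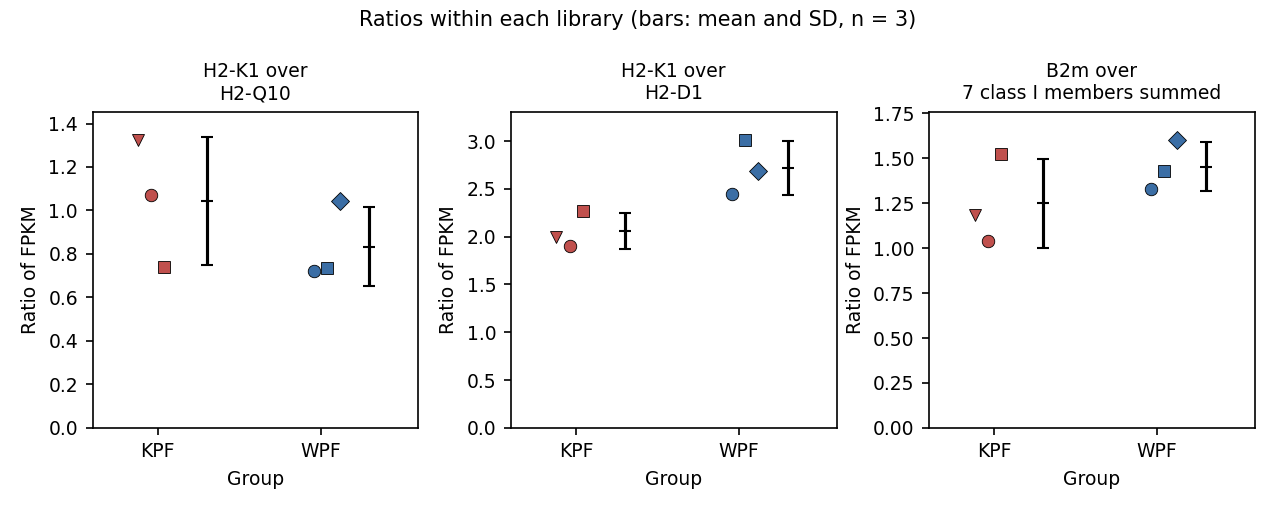
Ratios of FPKM within each library for H2-K1 over H2-Q10, H2-K1 over H2-D1 and B2m over the 7 class I members summed, as points, with the mean and SD of each group (n = 3). H2-K1 over H2-D1 lies between 1.91 and 2.27 in KPF and between 2.45 and 3.01 in WPF, and the groups overlap in the other panels.

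The remaining Q and T region members overlapped between the groups. *H2-Q4* stood at 68.7, 110.7 and 84.4 CPM in KPF replicates 1, 2 and 3, against 91.2, 101.8 and 133.4 CPM in the WPF dams (replicates 2, 3 and 4). Its lowest value was in KPF replicate 1 and its highest in WPF replicate 4, and its log2 fold change was -0.31 (SE 0.27, adjusted p = 0.697, edgeR). It was -0.14 without WPF replicate 4, -0.16 without KPF replicate 1 and -0.51 without KPF replicate 2. *H2-T23* stood at 142.7, 164.3 and 161.2 CPM in KPF against 142.1, 108.3 and 170.4 CPM in WPF. WPF replicate 3 alone was low, with a log2 fold change of 0.15 (SE 0.25, adjusted p = 0.832, edgeR), which was -0.0034 without that library. *H2-Q7* was counted with between 37 and 87 reads, at 6.10, 3.45 and 3.55 CPM in KPF against 6.91, 4.07 and 5.09 CPM in WPF (log2 fold change -0.29, SE 0.36, adjusted p = 0.783, edgeR). Leaving out 1 library moved it between -0.07, without WPF replicate 2, and -0.61, without KPF replicate 1. Its longest coding transcript shared 9.68% of its stretches of 150 bases with other genes, mostly with *H2-Q6*, so the division of reads between them is uncertain.

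Where relatives share reads, their sum does not depend on the division among those summed. It still depends on division with genes outside the sum, such as *H2-Q1* with *H2-D1*, or *H2-Q5* with *H2-Q7*. Any shared reads that were left uncounted would be missing from it. The reads of 18 class I genes without *H2-Q1* came to 2942, 2980 and 3242 CPM in KPF replicates 1, 2 and 3, and to 3642, 3483 and 3801 CPM in WPF replicates 2, 3 and 4. The groups did not overlap, with means of 3055 ± 163 CPM and 3642 ± 159 CPM (SD, n = 3 each). The log2 fold change was -0.25 (SE 0.24, adjusted p = 0.716, edgeR, and exact permutation p = 0.1). Without *H2-Q10* the sum was 1697 ± 137 CPM in KPF and 1754 ± 271 CPM in WPF, with overlap (log2 fold change -0.05, SE 0.25, adjusted p = 0.956, edgeR).

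The make-up of the class I reads varied between libraries. *H2-Q10* took 38.4, 41.7 and 52.3% of them in KPF replicates 1, 2 and 3, and 54.5, 55.4 and 45.7% in WPF replicates 2, 3 and 4. *H2-K1* took 34.4, 30.2 and 26.1% in KPF and 26.6, 27.6 and 32.2% in WPF. KPF replicate 3 resembled WPF replicates 2 and 3 in these shares, and the groups overlapped. *H2-Q1* took at most 0.278% in any library.

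**Figure D3:**
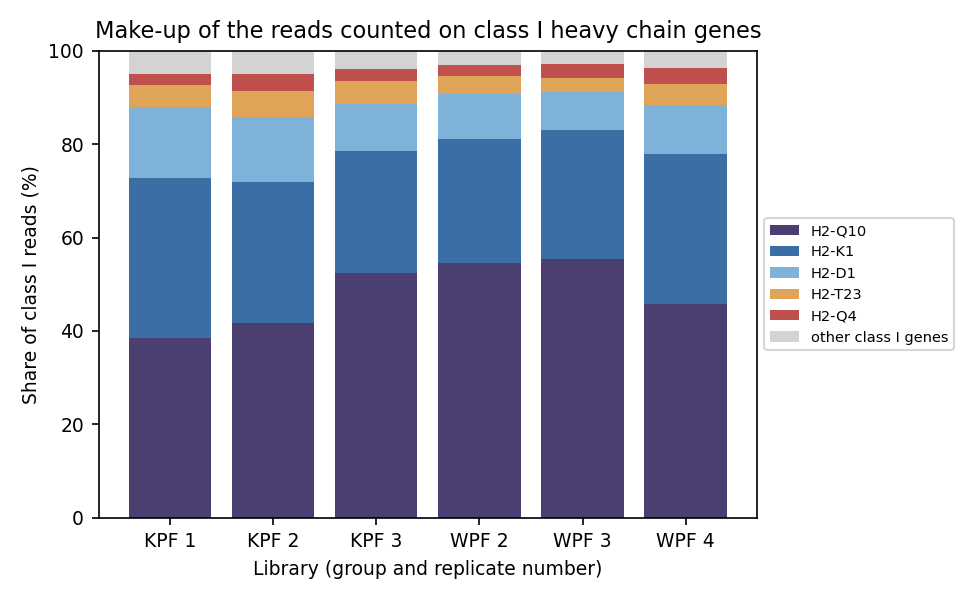
Share of the reads counted on class I heavy chain genes (percent, stacked to 100) taken by 5 members and by all other class I genes in each of the 6 libraries. H2-Q10 takes between 38.4 and 55.4%, H2-K1 between 26.1 and 34.4%, and the shares overlap between KPF and WPF for both.

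*B2m*, the light chain with which class I heavy chains pair, stood at 870.3, 763.5 and 1173.3 CPM in KPF replicates 1, 2 and 3, against 1156.6, 1183.1 and 1496.3 CPM in the WPF dams (replicates 2, 3 and 4). KPF replicates 1 and 2 were the lowest, and KPF replicate 3 lay among the WPF libraries. The log2 fold change was -0.45 (SE 0.28, adjusted p = 0.583, edgeR, and exact permutation p = 0.2). Per deposited exonic length, the *B2m* level was 1.18, 1.04 and 1.52 times the sum of the 7 class I heavy chain members in KPF, and 1.33, 1.43 and 1.601 times in WPF. The groups overlapped (exact permutation p = 0.3). Whether light chain or heavy chain RNA was the more abundant depended on the lengths used, since with the longest protein-coding transcripts in place of the deposited exonic lengths the ratio was between 0.571 and 0.862 in the 6 libraries.

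*Tap1*, a subunit of the peptide transporter, stood at 27.6, 26.2 and 26.1 CPM in KPF replicates 1, 2 and 3, against 17.2, 17.6 and 34.9 CPM in the WPF dams (replicates 2, 3 and 4). The KPF libraries were close together, with WPF replicates 2 and 3 below them and WPF replicate 4 above. The log2 fold change was 0.19 (SE 0.30, adjusted p = 0.823, edgeR), and without WPF replicate 4 it was 0.60 (unadjusted p = 0.0205, adjusted p = 0.365, edgeR). *Tapbp*, the gene of tapasin, stood at 36.2, 59.0 and 47.6 CPM in KPF against 45.6, 39.1 and 77.7 CPM in WPF. Its highest level was again in WPF replicate 4, and its log2 fold change of -0.19 (SE 0.32, adjusted p = 0.843, edgeR) was 0.16 without that library.

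**Figure D4:**
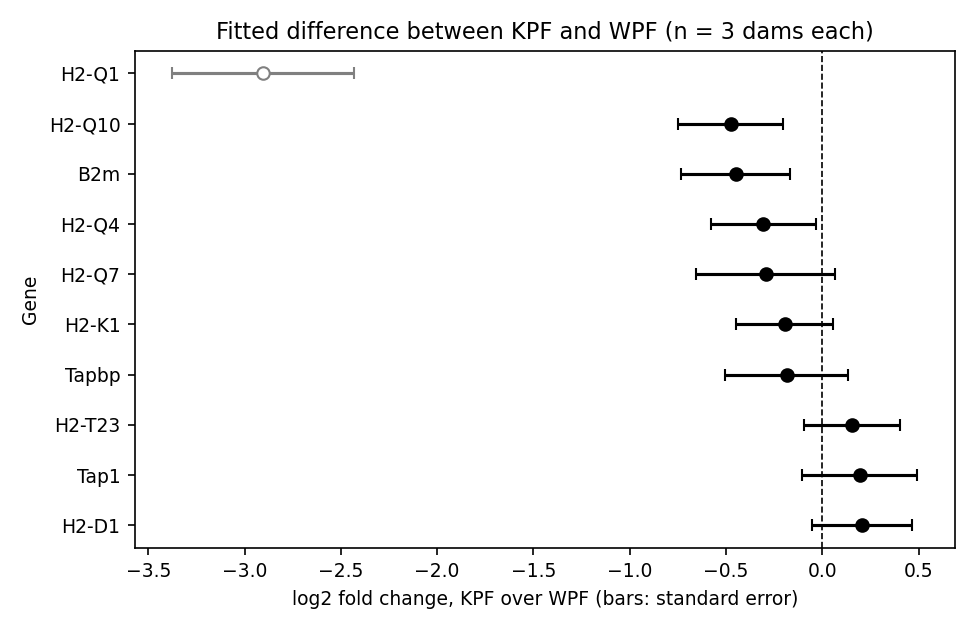
Fitted log2 fold change of KPF over WPF with its standard error for each member (n = 3 dams in each group, edgeR). H2-Q1, drawn open because the choice of genes rested on it, lies at -2.90, and the other 9 lie between -0.48 and 0.21. The bar of H2-Q1 is no test of its difference.

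Per deposited exonic length, the members spanned a wide range of levels. *B2m* came at the top, with a median of 1213 FPKM (883 to 2050 over the 6 libraries), followed by *H2-Q10* at 379 FPKM (255 to 483), *H2-K1* at 321 FPKM (259 to 491) and *H2-D1* at 140.2 FPKM (114.0 to 182.6). *H2-T23* had 49.3 FPKM, *H2-Q4* 36.9 FPKM, *Tapbp* 11.7 FPKM, *Tap1* 4.52 FPKM, *H2-Q7* 1.22 FPKM and *H2-Q1* 1.15 FPKM as medians. Of the 8 pairs of neighbours without *H2-Q1*, 6 had the same order in all 6 libraries (exact two-sided sign-flip permutation test, p = 0.03125, the smallest possible, and 0.0417 after Benjamini-Hochberg adjustment over the 8 pairs). *H2-Q10* was above *H2-K1* in 3 of 6 libraries (exact permutation p = 0.5), and *H2-T23* above *H2-Q4* in 5 of 6 (exact permutation p = 0.0625, adjusted p = 0.0714), so neither pair differed beyond the spread over libraries. *H2-Q7* was above *H2-Q1* in the 3 KPF libraries and below it in the 3 WPF libraries, which is given without a test because *H2-Q1* was the chosen gene. The deposited FPKM divides by all exonic bases of a gene, 4348 for *H2-Q10* and 2938 for *H2-K1*, whereas their longest protein-coding transcripts have 1991 and 1619 bases. With longest protein-coding transcript lengths *H2-Q10* was above *H2-K1* in 5 of 6 libraries and *H2-T23* above *H2-Q4* in all 6. *H2-Q7* was then above *H2-Q1* in WPF replicate 2 as well (ratio 1.69), and so in 4 of 6 libraries. The order of close neighbours thus depends on the length used.

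WPF replicate 4 held the highest level of 6 of the 10 members, *H2-K1*, *H2-Q4*, *H2-T23*, *B2m*, *Tap1* and *Tapbp*, and of 16.6% of all genes tested. Interferon-stimulated genes moved in the same library. Of 21 tested genes of a list of 25, 19 were highest in WPF replicate 4. The 21 genes summed to 1089 CPM there and to between 602.5 and 725.4 CPM in the other 5 libraries, and without *Iigp1*, the most abundant of them, to 697 CPM and to between 267 and 432 CPM. For *Oasl2*, an antiviral gene of the oligoadenylate synthetase family, the level was 26.5 CPM in WPF replicate 4 and between 5.44 and 8.501 CPM elsewhere. The antiviral GTPase gene *Mx1* stood at 11.4 CPM in that library and between 0.57 and 3.65 CPM elsewhere. The part of this library's interferon-stimulated level in the values of the members was not tested.

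Of the interferon-stimulated list, 1 of 21 genes passed an unadjusted p of 0.05 in the lower direction and 0 in the higher, and the median log2 fold change was -0.47 beside 0.02 over all genes. The gene was *Cxcl9*, a chemokine that draws T cells, at 1.62, 5.13 and 4.32 CPM in KPF replicates 1, 2 and 3, against 9.94, 17.002 and 5.45 CPM in the WPF dams (replicates 2, 3 and 4) (log2 fold change -1.54, SE 0.54, unadjusted p = 0.0226, adjusted p = 0.430, edgeR). Every KPF value was below every WPF value, and WPF replicate 4 was the lowest of its group, unlike most of the list. *Bst2*, the gene of tetherin, ran from 40.3 to 55.3 CPM in KPF and from 56.5 to 100.9 CPM in WPF, without overlap and without passing (log2 fold change -0.58, SE 0.28, adjusted p = 0.499, edgeR). The median difference of mean log2 CPM over the list was -0.34 with all libraries and 0.06 without WPF replicate 4.

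**Figure D5:**
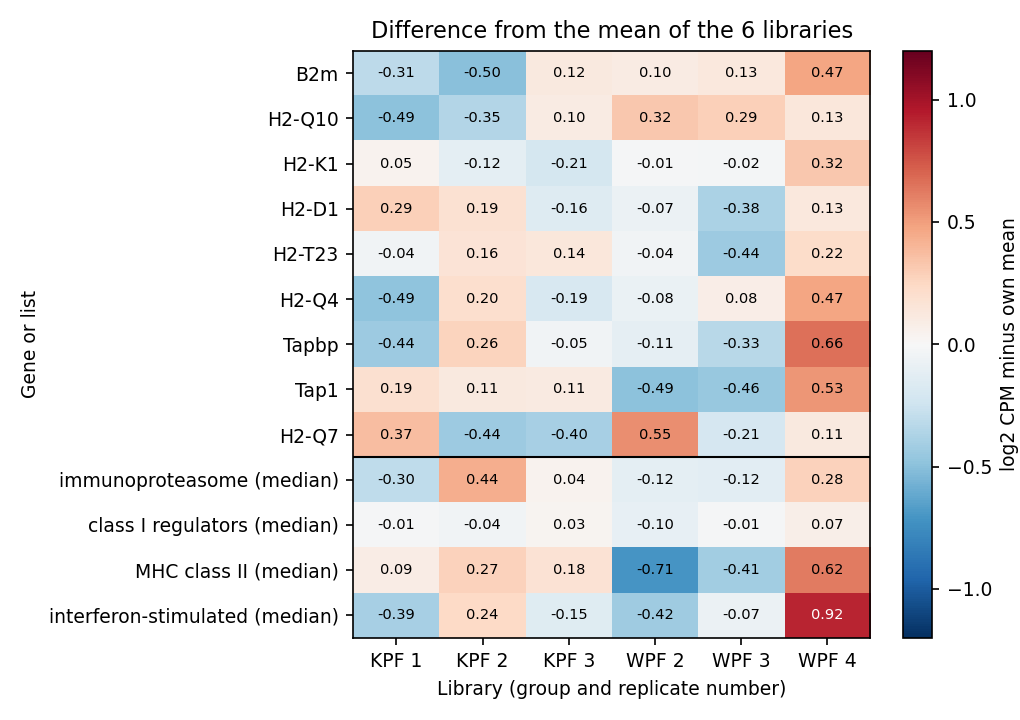
Difference of log2 CPM from its own mean over the 6 libraries, for 9 members and, below the line, as the median over the tested genes of 4 pathway lists (red higher, blue lower). WPF 4 is the highest column for the interferon-stimulated list, at 0.92, and for 6 of the 9 members, while H2-Q10 is at -0.49 and -0.35 in KPF 1 and KPF 2 and above 0 in the other libraries.

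Genes that control class I transcription were a list of 21, of which 20 were tested. 1 was lower and 0 were higher at an unadjusted p under 0.05, and the median log2 fold change was -0.06. The gene that passed was *Ifngr1*, the ligand-binding chain of the interferon gamma receptor. It stood at 8.29, 8.32 and 10.9 CPM in KPF replicates 1, 2 and 3, against 15.2, 15.5 and 19.1 CPM in the WPF dams (replicates 2, 3 and 4). The groups did not overlap (log2 fold change -0.86, SE 0.22, unadjusted p = 0.00526, adjusted p = 0.430, edgeR). *Jak1*, a kinase of the interferon receptors, ran from 31.7 to 35.5 CPM in KPF and from 37.1 to 41.4 CPM in WPF, without overlap (log2 fold change -0.26, SE 0.18, adjusted p = 0.611, edgeR). *Ifngr2*, the partner chain of *Ifngr1*, had a log2 fold change of 0.44 (SE 0.25, adjusted p = 0.550, edgeR). *Nlrc5*, the transactivator of class I genes, was chosen here for that role after its values were seen. It stood at 62.5, 84.5 and 70.8 CPM in KPF against 52.7, 45.0 and 92.2 CPM in WPF, with WPF replicate 4 the highest (log2 fold change 0.20, SE 0.31, adjusted p = 0.828, edgeR).

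The rest of the pathway gave 0 genes past an unadjusted p of 0.05 in either direction. All 5 immunoproteasome genes were tested, with a median log2 fold change of 0.06. *Psmb9*, a catalytic subunit that neighbours *Tap1*, stood at 15.3, 23.5 and 22.3 CPM in KPF against 11.2, 12.4 and 24.5 CPM in WPF, so that WPF replicate 4 was again above the other libraries of its group. Of 10 further peptide loading genes, 9 were tested (median 0.09). *Calr*, the gene of calreticulin, stood at 2596, 520.1 and 1225 CPM in KPF replicates 1, 2 and 3, and between 628 and 920 CPM in WPF, with KPF replicate 1 far above the rest. *Sec61b*, of the translocon of the endoplasmic reticulum, ran from 10.5 to 28.8 CPM in KPF and from 29.9 to 34.6 CPM in WPF, without overlap (log2 fold change -0.88, SE 0.38, adjusted p = 0.461, edgeR). *Tpp2*, a cytosolic peptidase, ran from 22.3 to 32.3 CPM in KPF and from 33.2 to 40.2 CPM in WPF, also without overlap (log2 fold change -0.43, SE 0.21, adjusted p = 0.501, edgeR).

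Of 15 other class I genes, 12 were in the table and 4 were tested, with a median log2 fold change of 0.32. *H2-T22* ran from 100.1 to 115.5 CPM in KPF and from 71.3 to 100.02 CPM in WPF, higher in KPF without overlap (log2 fold change 0.37, SE 0.23, adjusted p = 0.581, edgeR). *H2-Q6*, the near relative of *H2-Q7*, stood at 3.43, 1.06 and 2.40 CPM in KPF against 3.37, 4.36 and 4.22 CPM in WPF, with overlap (log2 fold change -0.79, SE 0.46, adjusted p = 0.555, edgeR). Of the 7 class I-like genes, 5 were tested (median -0.01). *Hfe*, which regulates iron uptake, ran from 14.2 to 18.1 CPM in KPF and from 19.3 to 27.3 CPM in WPF, without overlap (log2 fold change -0.43, SE 0.22, adjusted p = 0.512, edgeR). *Cd1d2*, of the CD1 family that presents lipids, ran from 2.02 to 3.24 CPM in KPF and from 1.12 to 1.70 CPM in WPF, higher in KPF without overlap (log2 fold change 0.75, SE 0.39, adjusted p = 0.519, edgeR). *Azgp1*, a secreted class I-like glycoprotein, was the most abundant of them, between 1022 and 1752 CPM over the 6 libraries, with overlap. Of 11 MHC class II genes, 5 were tested (median 0.30). *Cd74*, the invariant chain, stood at 22.8, 33.5 and 26.7 CPM in KPF against 15.3, 17.7 and 31.3 CPM in WPF, and WPF replicate 4 was again the highest of its group. *H2-DMb1*, which helps to load class II molecules, ran from 2.38 to 2.88 CPM in KPF and from 1.62 to 2.16 CPM in WPF, higher in KPF without overlap (log2 fold change 0.41, SE 0.34, adjusted p = 0.683, edgeR). Over the 7 lists, 2 of 69 tested genes (2.9%) were lower and 0 were higher at an unadjusted p under 0.05, beside the 4.55 and 6.29% of all genes given above. The groups did not overlap for 7 of the 69 lower in KPF (10.14%) and for 3 higher (4.35%), beside 8.15 and 7.55% of all genes.

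The genes whose log2 CPM was most like that of *H2-Q1* over the 6 libraries were *Mtmr3*, *Gbe1*, *Gm4189*, *Slc9a8* and *Ibtk*, with Pearson r from 0.961 to 0.989. Of 10856 genes compared, 67 had an r over 0.9. *Gbe1*, the glycogen branching enzyme, stood at 5.91, 5.66 and 4.90 CPM in KPF against 11.2, 16.7 and 13.9 CPM in WPF, with the highest value in WPF replicate 3 as for *H2-Q1*. *Mtmr3*, a lipid phosphatase gene, ran over a narrower range, from 25.4 to 28.7 CPM in KPF and from 32.9 to 35.8 CPM in WPF. The genes most like *H2-K1* were *Cdc42ep1*, *Sp5*, *Hopx*, *Lgals3bp* and *Arglu1*, with r from 0.946 to 0.992, and 20 of 10856 had an r over 0.9. None of these 10 genes was on the pathway lists. Each r rests on 6 libraries that share their depth and scaling with the gene compared, and is a description only. *H2-Q1* was chosen for its low level in KPF, so the genes most like it tend to split the groups by that choice alone.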

How the data were processed

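Liver RNA of 3 KPF and 3 WPF dams was analysed. Poly(A) RNA was sequenced as paired reads of 150 bases from libraries primed at random, with no strand marking stated. For every gene the authors deposited a raw read count beside an FPKM value, and each FPKM equals the count divided by exonic length and by the total of counted reads (100% of values within 0.02). The submitters' processing notes name cutadapt 1.9.1, HISAT2 2.2.1, HTSeq 0.6.1, DESeq2 and GRCm39 without saying what each did. How reads that fit several relatives were counted is not given in the sources used here. Symbols came from GENCODE M21 (52073 of 56691 identifiers matched, 4618 did not). Promoters came from RefSeq on GRCm38.p6 and were not combined with the deposited coordinates.

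Counts of genes whose FPKM averaged 1 or more were fitted with edgeR 4.0.16 (R 4.3.3, TMM, quasi-likelihood test, group as the only term) and adjusted by Benjamini-Hochberg over 10866 genes. The script was checked on simulated data. Values per library are CPM after TMM scaling, and errors are SD over dams. Single values were also tested by exact two-sided permutation, which cannot go below 0.1 with 3 against 3 dams. Levels of different genes were compared as FPKM, and pairs with *H2-Q1* were left untested. The text names the 10 members, *Mlxipl*, some of the 5 genes with the smallest p in each pathway list, and the 5 genes most like *H2-Q1* and *H2-K1*. Other genes, such as *Nlrc5* and *Iigp1*, are named for the reason given beside them. Of the smallest p values, those of *H2-T10* (log2 fold change 0.77, adjusted p = 0.478, edgeR) and *Irgm1* (-0.59, adjusted p = 0.464, edgeR) were not described above. Both overlapped between the groups. The members and lists were chosen with earlier results of these data known. Alternatives were other scalings, filters, DESeq2 1.42.0, limma 3.58.1 on log2(FPKM + 1) and log2(FPKM + 0.1), leaving out each library and a replicate block. The sums without *H2-Q10* and with 4 further class I genes or pseudogenes, and the levels per length of the longest protein-coding transcript, were added after seeing the data. The number of reads limits *H2-Q1* and *H2-Q7* most, and p-values measure the spread between these dams.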

Additional observations from a re-analysis of the deposited data

How the results depend on the processing

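Of the 9 members other than *H2-Q1*, 0 had an adjusted p under 0.05 under any alternative run (14 for each, but 13 for *H2-Q7* and *Tap1*, which like *H2-Q1* were not tested with a minimum mean FPKM of 5). *H2-Q1* ranged from -3.47 to -2.68 when a library was left out and was -1.51 with limma on log2(FPKM + 1), where the pseudocount shrinks low values. As these libraries chose the gene, that range is a description only. *H2-Q10* ranged from -0.67 to -0.36, and the class I sum from -0.39 to -0.05, the latter without *H2-Q10* and -0.27 with *H2-K2*, *H2-Q5*, *H2-Bl* and *H2-T-ps* added, all on the log2 scale. All genes with an adjusted p under 0.05 numbered 286 with no filter, 156 with DESeq2 and 0 to 5 when a library was left out, against 0 in the fit reported. Genes lower in KPF at an unadjusted p under 0.05 numbered 767 with library totals, 937 with no filter, 232 with a minimum mean FPKM of 5, and 248 to 758 when a library was left out. Genes higher in KPF numbered 376, 1583 and 293 in the same 3 settings, 275 and 298 with limma on log2(FPKM + 1) and log2(FPKM + 0.1), and 332 to 977 when a library was left out. The split of 494 lower and 683 higher thus turned to more lower than higher with library totals. The median log2 fold change of all genes was then -0.12, and it was -0.093 and -0.12 in the limma fits. Of the members, 1 was lower at an unadjusted p under 0.05 with library totals and in both limma fits (*H2-Q10*), and 1 was higher with the replicate block and, among the fits without a library (0 to 1), without WPF replicate 4 (*Tap1*). Of the pathway genes, 5 were lower with library totals, 8 lower and 1 higher with no filter, 0 lower with a minimum mean FPKM of 5, and 2 to 6 lower and 0 to 5 higher when a library was left out. When a library was left out, *Tapbp* ranged from -0.38 to 0.16, above 0 without WPF replicate 4, and *H2-T23* from -0.0034 to 0.31, below 0 without WPF replicate 3. The order of levels was the same in every library for 6 to 7 pairs of neighbours when a library was left out for 6 on the TPM scale and for 7 with transcript lengths. Where no cause is given, the cause was not tested.

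Replicate numbers 2 and 3 occur in both groups but name different dams. The deviations of same-numbered libraries from their group means correlated at 0.0865 and -0.052. These values gave no sign of a pairing, but so few libraries cannot settle whether the numbers share a handling step. With the replicate block, which rests on these 4 libraries, 556 genes were lower and 685 higher at an unadjusted p under 0.05, 0 had an adjusted p under 0.05, 7 pathway genes were higher, *H2-Q4* changed sign to 0.0044 and *Tapbp* to 0.33, *Tap1* was 0.59, *H2-Q10* -0.43, *H2-Q1* -3.38 and the class I sum -0.20.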

Other observations

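The stretch of chromosome 17 from the start of *H2-K2* to the end of *H2-T3* (chr17:34193608-36501179 in the deposited coordinates) held 232 genes, of which 89 were tested beside *H2-Q1*, the gene that chose the family. At an unadjusted p under 0.05, 1 of the 89 was lower in KPF (*H2-K2*) and 7 were higher, beside 4.55 and 6.29% of all genes. The groups did not overlap for 2 of the 89 lower in KPF and for 10 higher, beside 8.15 and 7.55% of all genes. The median log2 fold change of the 89 was 0.28, beside 0.02 over all genes tested. The stretch and these genes were chosen after their values were seen. *H2-K2*, a class I pseudogene beside *H2-K1*, stood at 76.3, 76.1 and 81.8 CPM in KPF replicates 1, 2 and 3, against 141.2, 165.5 and 81.3 CPM in the WPF dams (replicates 2, 3 and 4). WPF replicate 4 lay within the KPF range, so the groups overlapped (log2 fold change -0.73, SE 0.30, adjusted p = 0.453, edgeR). *Cchcr1*, between the Q and T regions, stood at 35.5, 18.5 and 24.3 CPM in KPF against 11.1, 12.0 and 9.02 CPM in WPF, higher in KPF without overlap (log2 fold change 1.28, SE 0.28, adjusted p = 0.416, edgeR). *Agpat1*, which makes phosphatidic acid in lipid synthesis, ran from 41.6 to 65.6 CPM in KPF and from 30.2 to 30.8 CPM in WPF (log2 fold change 0.83, SE 0.22, adjusted p = 0.430, edgeR).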
